A study of Homo sapiens with 2 samples.

Results

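The genes described here are 37 genes of cholesterol synthesis, of its control by the sterol regulatory element-binding proteins (SREBPs) and of sterol transport, listed by symbol with earlier results of these data known. Each was read from the probe set that GEO's platform annotation gives to that gene alone. Of the 37 genes, 35 had such a probe set and 32 were detected, out of 18417 genes measured and 11352 detected on the arrays. The study used Huh-7, a human cell line established from a hepatocellular carcinoma, and transfected it with siRNA against DEPDC1 (1 array) or with the control named NC (1 array), and collected both 72 h later. Neither the number of siRNAs nor what NC consists of is given in the sources used here. Each array is labelled biological replicate 1 of its group, so the differences below have no replicate behind them and are given without p-values.

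Cholesterol is built from acetyl-CoA in the endoplasmic reticulum. The mevalonate pathway makes isoprenoid diphosphates, farnesyl diphosphate is joined to squalene, and squalene is closed to lanosterol and trimmed to cholesterol. When membrane sterol is low, SCAP carries the SREBPs to the Golgi, where 2 proteases release the part that enters the nucleus and switches on the synthesis genes. When sterol is plentiful, the INSIG proteins hold SCAP back, and oxysterols act through the liver X receptors on efflux genes. Hepatocytes are a main site of cholesterol synthesis, lipoprotein uptake and sterol secretion into bile.

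No member of the list differed by 2-fold, where 0.863% of all detected genes were lower and 1.94% higher by that much. Synthesis as a whole sat close to the middle of all genes. STARD4, a soluble sterol carrier, was 1.59-fold lower in the siRNA array, and LRP1, a large endocytic receptor for lipoprotein remnants, was 1.58-fold higher. They were the 2 members that passed 1.5-fold, 1 of 32 detected members (3.12%) each way. Of all detected genes 3.74% were lower and 6.03% higher by that much, so these counts do not set the members apart. MBTPS2 and SC5D were lower by a smaller step, though a probe set that MBTPS2 shares with YY2 differed by 0.03. SREBF2 and DHCR7 had the same deposited value in both arrays, as 225 detected genes (1.98%) did. The median difference of the 32 detected members was -0.08 on the log2 scale, against 0.00 over all detected genes.

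All differences are the siRNA value minus the NC value of the deposited log2 expression. Detected genes are those with at least 1 array at or above 4.66, the median over all probe sets and both arrays. The siRNA target itself checked the labels: DEPDC1 had a log2 expression of 5.15 in the siRNA array and 7.82 in the NC array, 6.37-fold lower. As a gauge of measurement noise, 444 genes with several detected probe sets were used, and the range of the differences within such a gene had a median of 0.087 and a 90th percentile of 0.41 on the log2 scale. That gauge holds no spread between cultures, which 1 array per group cannot show. Hepatocyte products were detected in both arrays, and most of them were lower with siRNA: AFP was 3.92-fold lower, SERPINA1 3.18-fold, TF 2.12-fold, APOA1 1.64-fold, ALB 1.41-fold and FGB 1.38-fold, while TTR was 2.65-fold and APOA2 1.32-fold higher. Of 10 fibroblast and stellate cell markers 6 were detected. LUM (4.95-fold), FBN1 (4.55-fold) and COL1A2 (2.10-fold) were higher in the siRNA array, whereas PDGFRA, COL1A1 and COL3A1 differed by 0.09, 0.06 and -0.04. DCN, PDGFRB, ACTA2 and THY1 stayed at or under 4.37 in both arrays. The linear signal summed over these 10 markers was 1542 in the siRNA array and 506 in the NC array, of which LUM and FBN1 made up 1240.2 in the siRNA array and 255 in the NC array. None of 5 endothelial markers was detected. Of 6 leukocyte markers LYZ (2.30-fold higher) and CD14 (1.21-fold higher) were detected. The signals summed over all 6, detected or not, were 249.9 in the siRNA array and 189 in the NC array. KRT19, EPCAM and SOX9 of the 4 cholangiocyte markers were detected. The signals summed over all 4, detected or not, were 1439 in the siRNA array and 1246 in the NC array. Both arrays are of the Huh-7 line, so these lists name genes typical of a cell type, not cells known to be in the cultures. The part of these shifts in the sterol gene values was not tested. In such bulk RNA fewer cells that express a gene and less RNA per cell cannot be told apart.

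The promoters of 6 members are shown before their values, because the SREBPs act through short elements close to the start site: the 4 members with the lowest differences, the 1 with the highest, and SREBF2, the gene of the factor itself. The sequences are RefSeq's (GRCh38.p14), 250 bases up to the start site, 5′ to 3′ on the gene's strand. Where RefSeq lists several starts (2 for SC5D, 3 for IDI1), the window with the most motif matches is shown. Capitals mark matches, on either strand, to the sterol element core CACNCCAC, to the CCAAT box CCAAT and to the E-box CACGTG. The first capitals of IDI1 are 2 overlapping CCAAT matches.

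STARD4, chr5:111512536-111512785, minus strand: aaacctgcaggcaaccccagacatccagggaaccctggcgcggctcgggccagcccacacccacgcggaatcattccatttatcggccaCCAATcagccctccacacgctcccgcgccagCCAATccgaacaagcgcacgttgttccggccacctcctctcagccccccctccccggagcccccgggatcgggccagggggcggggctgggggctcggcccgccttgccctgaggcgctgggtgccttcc
MBTPS2, chrX:21839367-21839616, plus strand: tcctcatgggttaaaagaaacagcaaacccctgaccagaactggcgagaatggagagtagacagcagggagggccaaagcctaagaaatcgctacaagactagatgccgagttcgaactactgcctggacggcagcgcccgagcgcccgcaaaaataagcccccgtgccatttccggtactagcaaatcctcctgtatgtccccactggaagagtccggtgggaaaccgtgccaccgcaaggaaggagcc
SC5D, chr11:121292602-121292851, plus strand: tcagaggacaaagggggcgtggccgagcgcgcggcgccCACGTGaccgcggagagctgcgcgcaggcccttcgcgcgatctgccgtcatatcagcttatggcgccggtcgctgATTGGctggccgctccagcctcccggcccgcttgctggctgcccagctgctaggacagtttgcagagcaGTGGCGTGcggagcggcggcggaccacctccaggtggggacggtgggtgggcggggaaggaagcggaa
IDI1, chr10:1048887-1049136, minus strand: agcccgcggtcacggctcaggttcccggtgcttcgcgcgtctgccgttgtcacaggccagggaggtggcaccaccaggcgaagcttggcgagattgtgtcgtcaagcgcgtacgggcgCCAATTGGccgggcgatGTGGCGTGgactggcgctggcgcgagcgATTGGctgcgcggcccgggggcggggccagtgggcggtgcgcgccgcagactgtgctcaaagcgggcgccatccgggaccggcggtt
LRP1, chr12:57128233-57128482, plus strand: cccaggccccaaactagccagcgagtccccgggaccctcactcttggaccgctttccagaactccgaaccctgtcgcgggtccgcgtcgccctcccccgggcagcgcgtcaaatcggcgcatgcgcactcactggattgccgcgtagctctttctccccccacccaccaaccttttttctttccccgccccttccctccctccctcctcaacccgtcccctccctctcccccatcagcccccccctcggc
SREBF2, chr22:41832855-41833104, plus strand: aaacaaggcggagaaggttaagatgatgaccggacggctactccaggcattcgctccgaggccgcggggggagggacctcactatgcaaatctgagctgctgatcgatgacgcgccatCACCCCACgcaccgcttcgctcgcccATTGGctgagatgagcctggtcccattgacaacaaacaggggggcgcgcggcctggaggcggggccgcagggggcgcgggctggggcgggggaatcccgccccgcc

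These windows differed in what they hold. Those of SC5D and IDI1 were picked for the most matches among several starts, while STARD4, MBTPS2, LRP1 and SREBF2 had 1 start each. The STARD4 window had 2 CCAAT matches and no match to the sterol element core. The SC5D window had 1 match to each of the 3 motifs. In IDI1 there was 1 match to the sterol element core and there were 3 CCAAT matches, and in SREBF2 there was 1 of each, whereas the MBTPS2 and LRP1 windows as printed held no match to any of the 3. RefSeq windows of 250 bases before to 50 after a start were found for 30 of the 37 genes (39 windows). FDFT1, SQLE, LCAT, SCARB1, ABCG1, SOAT2 and ACAT2 had no entry. The sterol element core was in 6 of the 39 windows (15.4%), against 5.87% of all 35116 promoter windows. CCAAT was in 21 (53.8%) against 34.6%, CACGTG in 6 (15.4%) against 7.26%, and the GC box GGGCGG in 32 (82.1%) against 45.0%. The 5 genes whose windows held the sterol element core differed in both directions: SC5D by -0.47, IDI1 by -0.41, SREBF2 by 0.00, INSIG1 by 0.12 and ABCA1 by 0.28. A match is a description of these letters and not a binding site.

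**Figure D1:**
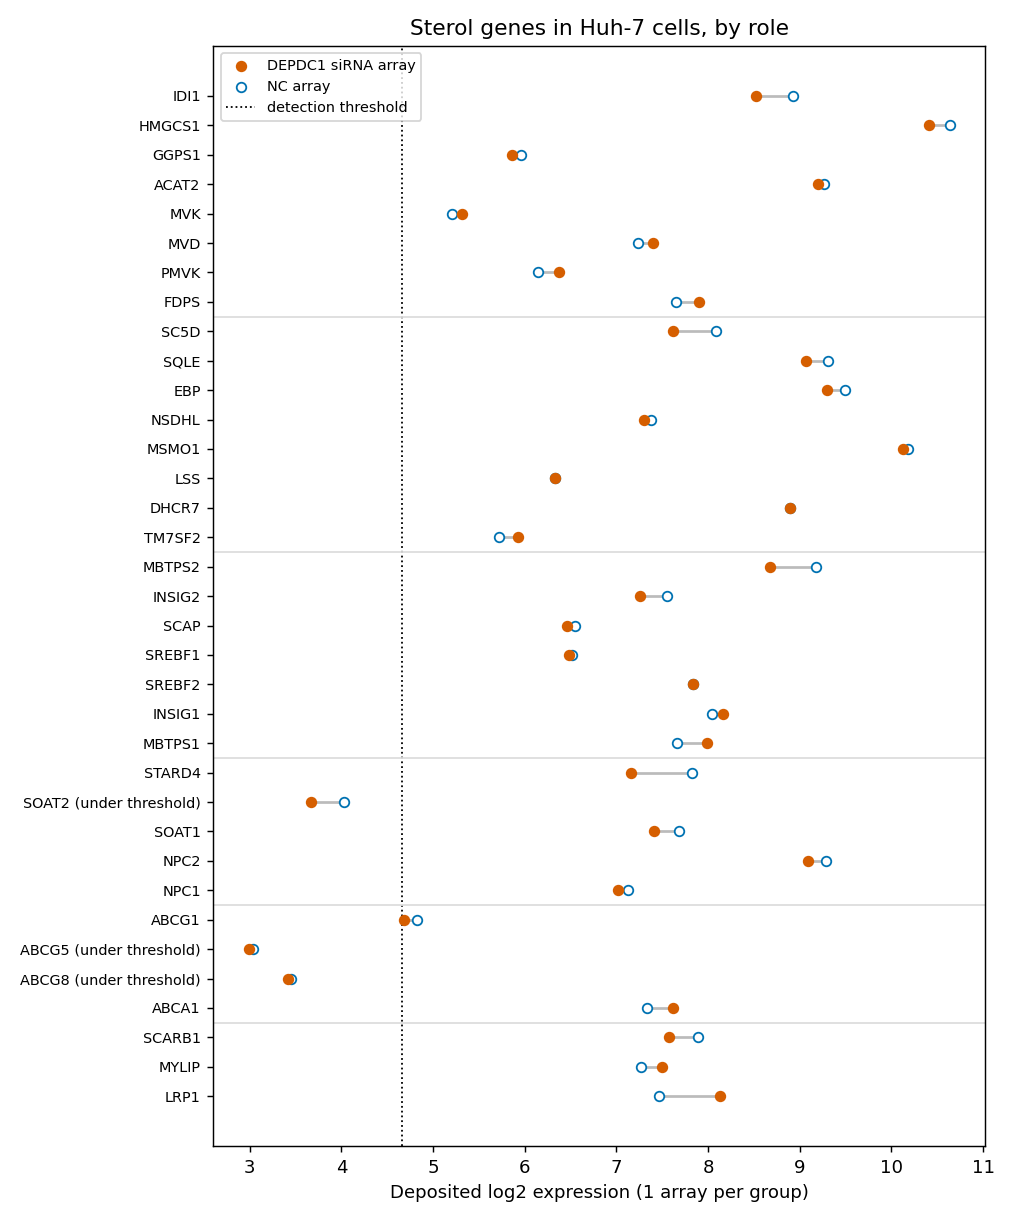
Deposited log2 expression of the 35 measured members (x axis), grouped by role from the mevalonate pathway at the top to uptake at the bottom. Filled points are the DEPDC1 siRNA array, open points the NC array, and the dotted line is the detection threshold of 4.66. The longest connecting lines belong to STARD4 (7.16 in the siRNA array, 7.83 in the NC array) and LRP1 (8.13 in the siRNA array, 7.47 in the NC array), and SOAT2, ABCG5 and ABCG8 lie under the threshold in both arrays.

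The 8 genes of the mevalonate pathway were split evenly, 4 lower and 4 higher in the siRNA array, with a median difference of 0.02. The lower ones included IDI1, the isomerase that readies isopentenyl diphosphate for chain growth, with 8.52 in the siRNA array and 8.93 in the NC array (1.33-fold lower). HMGCS1, the cytosolic HMG-CoA synthase, had 10.41 in the siRNA array and 10.64 in the NC array (1.18-fold lower). ACAT2, the thiolase that condenses acetyl-CoA, differed by -0.07, and GGPS1, which makes geranylgeranyl diphosphate for protein prenylation, by -0.10. All 4 of these differences lay inside the 90th percentile of the probe set gauge, IDI1 just so.

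The enzymes between these steps were slightly higher. MVK, mevalonate kinase, had 5.32 in the siRNA array and 5.21 in the NC array. PMVK, phosphomevalonate kinase, had 6.37 in the siRNA array and 6.14 in the NC array. MVD, the decarboxylase that yields isopentenyl diphosphate, had 7.40 in the siRNA array and 7.24 in the NC array. Each of these differences lay inside the 90th percentile of the probe set gauge. FDPS, farnesyl diphosphate synthase, had 7.90 in the siRNA array and 7.65 in the NC array, a difference of 0.25. A pair of further probe sets shared by FDPS and its pseudogene FDPSP2 gave 0.21 and 0.21.

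In the sterol branch 8 of 9 enzymes were measured: 6 were lower in the siRNA array, 1 was equal and 1 higher, with a median of -0.07. Over all detected genes 48.1% were lower and 49.9% higher. SC5D, the desaturase that places the ring double bond ahead of the last reduction, had 7.62 in the siRNA array and 8.08 in the NC array, 1.38-fold lower. It was the single synthesis enzyme of 16 measured whose difference passed the 90th percentile of the gauge. That is 6.25% of these enzymes, against 7.82% of all detected genes lower and 11.7% higher by that limit. SQLE, squalene epoxidase, had 9.07 in the siRNA array and 9.31 in the NC array (1.18-fold lower). EBP, a sterol isomerase, had 9.30 in the siRNA array and 9.50 in the NC array. These 3 enzymes act at different points of the branch.

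For 4 further enzymes of the branch, LSS, MSMO1, NSDHL and DHCR7, the difference lay inside the median of the gauge. LSS, which closes the ring to lanosterol, had 6.33 in both arrays. MSMO1 and NSDHL, which act together in removing methyl groups, differed by -0.05 and -0.08. DHCR7, which reduces 7-dehydrocholesterol to cholesterol, had 8.90 in both arrays, identical to every deposited digit. Identical values were not rare: 1940 of 33297 probe sets (5.83%) and 225 detected genes (1.98%) had them, so the equality does not measure a difference of 0 to that precision. TM7SF2, a sterol reductase, was the 1 higher enzyme, with 5.92 in the siRNA array and 5.72 in the NC array. FDFT1, squalene synthase, was not analysed here.

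Of the 7 genes of SREBP control, 4 were lower, 1 was equal and 2 were higher, with a median of -0.04. The factors themselves differed little: SREBF2, which chiefly serves cholesterol synthesis, had 7.83 in both arrays to every deposited digit, and SREBF1, which chiefly serves fatty acid synthesis, had 6.48 in the siRNA array and 6.52 in the NC array. SCAP, the escort that senses sterol, had 6.46 in the siRNA array and 6.55 in the NC array.

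Partner genes within this group differed in opposite directions. MBTPS1, which makes the first cut in the SREBPs, had 7.99 in the siRNA array and 7.66 in the NC array, 1.25-fold higher. MBTPS2, the intramembrane protease that makes the next cut, had 8.67 in the siRNA array and 9.18 in the NC array, 1.42-fold lower. The probe set that MBTPS2 shares with YY2 did not give that difference: it had 5.96 in the siRNA array and 5.93 in the NC array. INSIG1, itself an SREBP target, had 8.17 in the siRNA array and 8.05 in the NC array. INSIG2, its paralog, had 7.26 in the siRNA array and 7.55 in the NC array, 1.23-fold lower. Only the MBTPS2 difference among these 7 genes passed the 90th percentile of the gauge, which 7.82% of all detected genes passed downward and 11.7% upward.

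**Figure D2:**
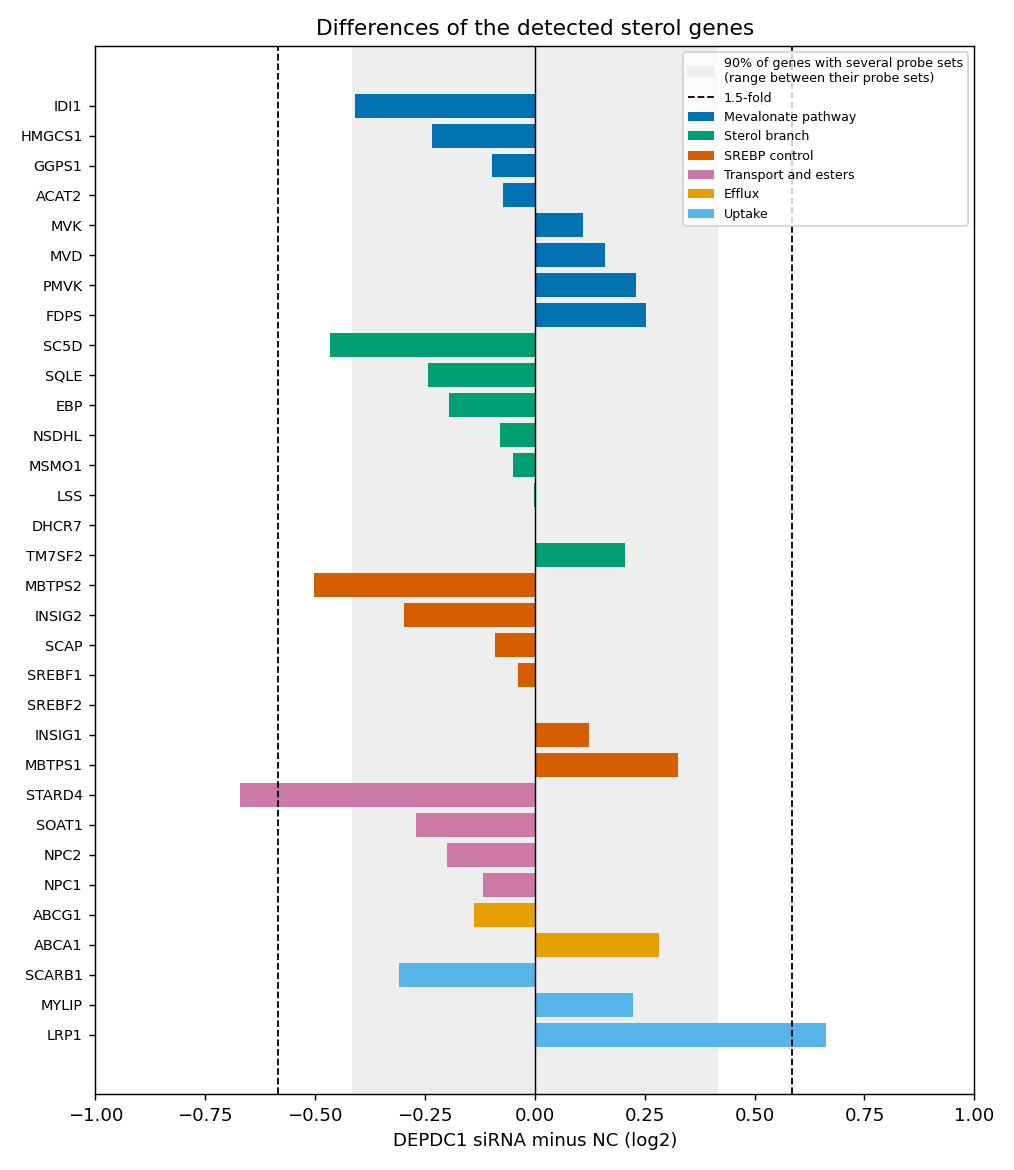
Difference of each detected member, DEPDC1 siRNA minus NC (x axis, log2), coloured by role. The grey band spans the 90th percentile of the range between probe sets of the same gene (0.41 either way), and the dashed lines mark 1.5-fold. STARD4 (-0.67) and LRP1 (0.66) pass the dashed lines, and MBTPS2 (-0.50) and SC5D (-0.47) lie between band and line.

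All 4 detected genes of intracellular transport and esterification were lower in the siRNA array, with a median of -0.24, where 48.1% of all detected genes were lower. Only 1 of the 4, STARD4, passed the 90th percentile of the gauge, as 7.82% of all detected genes did downward and 11.7% upward. STARD4 moves cholesterol between membranes and is an SREBP target, and it had 7.16 in the siRNA array and 7.83 in the NC array. Its difference of -0.67 was the lowest of the members, and 314 of the 11352 detected genes (2.77%) had a difference as low. NPC1 and NPC2, which pass cholesterol out of lysosomes together, differed by -0.12 and -0.20. NPC1 had 7.01 in the siRNA array and 7.13 in the NC array, and NPC2 had 9.09 in the siRNA array and 9.29 in the NC array. SOAT1, which esterifies cholesterol for storage, had 7.41 in the siRNA array and 7.68 in the NC array (1.21-fold lower). SOAT2, the esterifying enzyme of hepatocytes and enterocytes, was under the threshold in both arrays (3.67 in the siRNA array and 4.02 in the NC array).

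Of the 5 efflux genes 2 were detected. ABCA1, which loads cholesterol onto apolipoprotein A-I and is a target of the liver X receptors, had 7.62 in the siRNA array and 7.34 in the NC array, 1.22-fold higher. ABCG1, another liver X receptor target that exports sterol to lipoproteins, had 4.68 in the siRNA array and 4.82 in the NC array, both just above the threshold. These 2 genes thus differed in opposite directions, each inside the 90th percentile of the gauge. ABCG5 and ABCG8, the partner transporters of sterol secretion into bile, were under the threshold in both arrays: ABCG5 had 2.99 in the siRNA array and 3.03 in the NC array, and ABCG8 had 3.41 in the siRNA array and 3.45 in the NC array. LCAT, which esterifies cholesterol in plasma lipoproteins, was on a probe set shared with SLC12A4, with 5.43 in the siRNA array and 5.05 in the NC array, and this cannot be assigned to either gene.

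The receptors LRP1 and SCARB1 and the receptor-degrading MYLIP went both ways, and the median of these 3 genes, 0.22, is MYLIP's own value. LRP1 had 8.13 in the siRNA array and 7.47 in the NC array, the highest difference of the members (0.66), and 548 detected genes (4.83%) had one as high. Of the 10 fibroblast and stellate cell markers given above, 3 of 6 detected ones were more than 2-fold higher in the same array and 3 differed by at most 0.09, and their part in this value was not tested. SCARB1, the receptor that takes cholesterol esters from high density lipoprotein, had 7.58 in the siRNA array and 7.89 in the NC array, 1.24-fold lower. MYLIP, a ubiquitin ligase that sends lipoprotein receptors to degradation and is a liver X receptor target, had 7.50 in the siRNA array and 7.27 in the NC array.

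The counts were set against those of all detected genes. At 1.5-fold, 1 of 32 members was lower (3.12%) and 1 higher (3.12%), against 3.74% of all detected genes lower and 6.03% higher. At 2-fold the counts were 0 and 0, against 0.863% lower and 1.94% higher. Beyond the 90th percentile of the gauge, 3 members (9.38%) were lower, STARD4, MBTPS2 and SC5D, and 1 (3.12%) was higher, LRP1, against 7.82% lower and 11.7% higher. IDI1, at -0.41, lay just inside that limit. By sign alone, 20 members (62.5%) were lower, 2 equal and 10 (31.2%) higher, against 48.1% of detected genes lower and 49.9% higher. The members' differences had an SD of 0.28, against 0.40 over all detected genes, and a median size of 0.20 against 0.19. Inside the median of the gauge lay 7 members (21.9%), against 24.3% of detected genes.

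**Figure D3:**
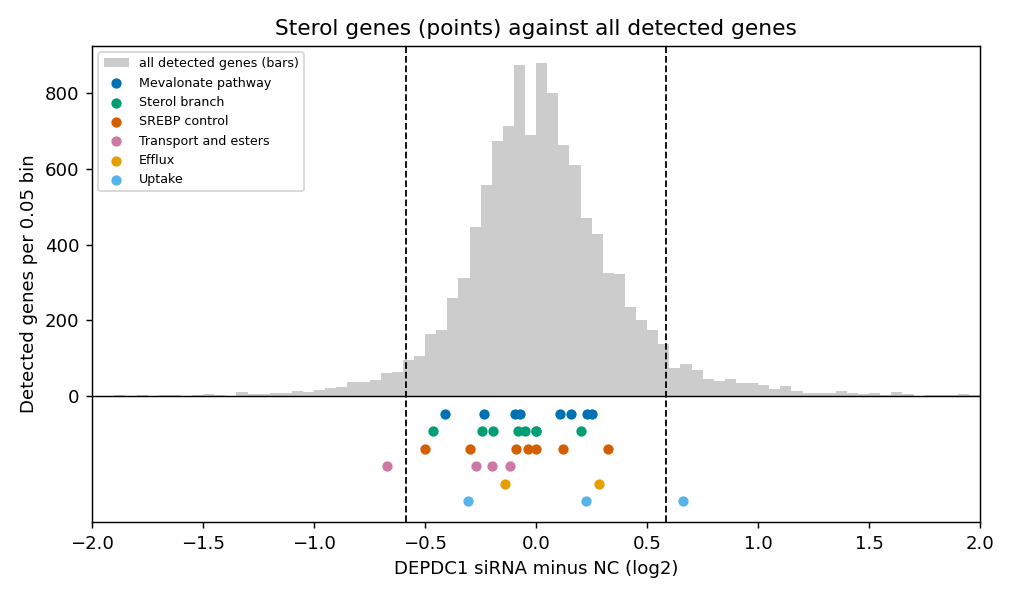
Distribution of the difference, DEPDC1 siRNA minus NC (x axis, log2), over all detected genes (bars, genes per bin), with the 32 detected members as points below by role. The x axis ends at 2 either way, so the few genes beyond are not drawn. The members lie between -0.67 and 0.66, and the 4 transport and ester genes all lie left of 0.

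Related sterol genes outside the list held larger single differences than the members. These lists together hold more detected genes than the member list, so the extremes are not compared like for like. Of all detected genes 0.863% were lower and 1.94% higher by 2-fold. For the counts by sign in this and the next lists, 48.1% of all detected genes were lower and 49.9% higher. Among 18 detected genes of sterol binding and transfer, 7 were lower and 11 higher, with a median of 0.19. TMEM97, the sigma-2 receptor and an SREBP target that binds NPC1, had 8.59 in the siRNA array and 9.48 in the NC array (1.85-fold lower). OSBPL8, an oxysterol-binding protein relative at membrane contacts, was 1.78-fold lower and its relative OSBPL2 1.65-fold higher. GRAMD1C, a carrier of plasma membrane cholesterol, had 5.66 in the siRNA array and lay under the threshold in the NC array (4.55), at least 2.0-fold higher. TMEM97 and STARD4 were both lower, while GRAMD1C and OSBPL2 were higher. The genes of this list described here were picked by the size of their differences. INSIG1, which is also an SREBP target, differed by 0.12.

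Among 12 detected genes that use isoprenoids, 7 were lower and 5 higher, with a median of -0.06. ZMPSTE24, the protease that trims farnesylated prelamin A, had 7.79 in the siRNA array and 9.08 in the NC array, 2.46-fold lower. DHDDS, a subunit of the dolichol-forming transferase, had 8.64 in the siRNA array and 7.88 in the NC array, 1.69-fold higher. ICMT, which methylates prenylated proteins, differed by 0.54, and PGGT1B, a subunit of geranylgeranyl transferase, by 0.30.

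Among 13 detected genes of SREBP-1 lipogenesis, 8 were lower and 5 higher, with a median of -0.17. GPAM, which starts glycerolipid synthesis, was 2.05-fold lower (5.44 in the siRNA array and 6.48 in the NC array). MID1IP1, a partner of acetyl-CoA carboxylase, was 1.53-fold lower and LPIN1, a phosphatidate phosphatase, 1.39-fold lower, while ME1, malic enzyme, was 1.41-fold higher. The median of this list was lower than that of the 16 measured cholesterol synthesis enzymes (-0.06), and that gap was not tested.

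Sterol breakdown to bile acids was mostly under detection: of 13 listed genes of bile acid and oxysterol synthesis, 11 were measured and 3 detected, all lower in the siRNA array. BAAT, which conjugates bile acids, had 3.84 in the siRNA array, under the threshold, and 5.56 in the NC array, at least 1.88-fold lower. CYP27A1, a sterol hydroxylase, had 4.51 in the siRNA array, also under the threshold, and 5.33 in the NC array, at least 1.59-fold lower. SULT2B1, a sterol sulfotransferase, differed by -0.02. BAAT and CYP27A1 counted as detected through their NC values alone, so the shared direction of these 3 genes supports nothing.

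Receptors and ester hydrolases had 2 lower and 6 higher of 8 detected genes, with a median of 0.12. VLDLR, a lipoprotein receptor of the same family as LRP1, had 7.67 in the siRNA array and 6.28 in the NC array, 2.62-fold higher. LIPA, the lysosomal acid lipase, was 1.38-fold higher and NCEH1, a cholesterol ester hydrolase, 1.25-fold higher, and LRPAP1, a chaperone of this receptor family, differed by 0.19. Both LRP1 and VLDLR were thus higher, while LRP5, LRP6 and LRP8 of that family differed by 0.04, -0.14 and -0.08 (these 3 named after their values were seen). In the list of ER degradation and nuclear receptor genes, 4 of 8 detected genes were lower and 4 higher, with a median of -0.03. ERLIN2, an endoplasmic reticulum protein of sterol-driven degradation, was 1.65-fold higher, NR0B2, a bile acid-induced repressor, 1.30-fold lower, RXRB, a partner of the liver X receptors, 1.25-fold higher, and RNF139, a ubiquitin ligase, 1.18-fold lower.

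**Figure D4:**
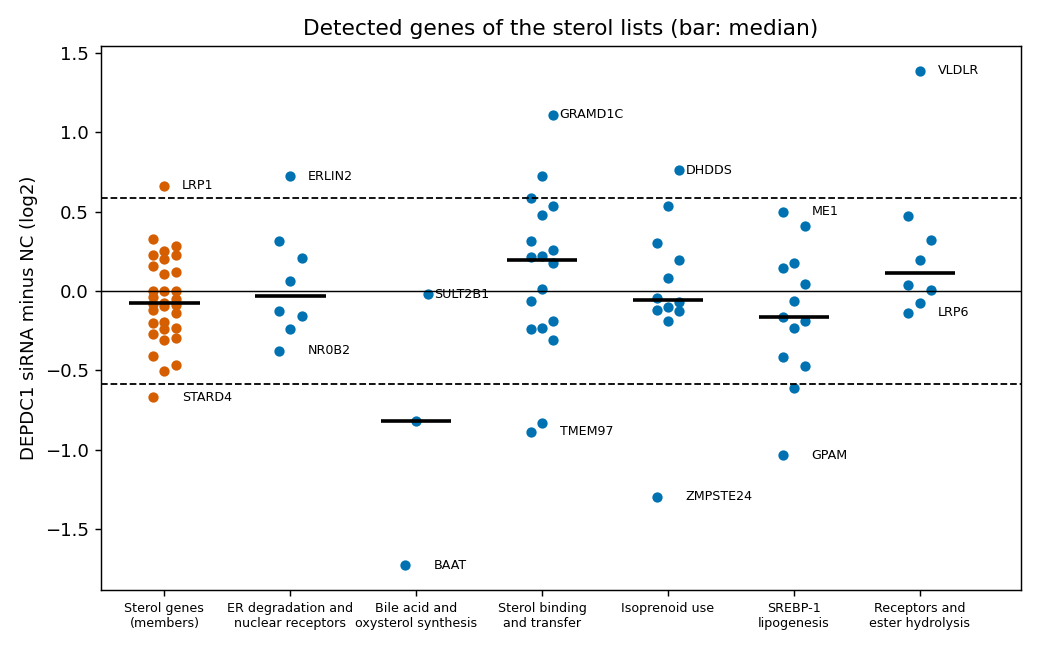
Difference of each detected gene, DEPDC1 siRNA minus NC (y axis, log2), in the 32 members (left) and in 6 lists of related genes. Black bars are list medians, dashed lines mark 1.5-fold, and the lowest and highest gene of each list is named. The members keep between -0.67 and 0.66, while VLDLR, ZMPSTE24 and GPAM, above the threshold in both arrays, lie past 1 either way. BAAT, CYP27A1, GRAMD1C and OSBPL7 are drawn at their measured values although 1 of their 2 arrays lay under the threshold.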

How the data were processed

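Total RNA of Huh-7 cells was hybridised to 2 Affymetrix arrays, 1 per group, 72 h after transfection. The deposited table holds 33297 probe sets with a value for each array, in a unit that the labels do not state. With a range of 1.39 to 12.7, these deposited values were taken as log2 expression. The tools named, per the submitters' processing notes, are Transcriptome Analysis Console 3.0 and Affymetrix Expression Console, and background correction, normalization and filters are not given in the sources used here. The sorted columns differed by at most 0.0997, so the values were taken as normalized between arrays and not rescaled.

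In GEO's platform annotation 19460 probe sets had a single gene, 1754 had several and 12083 had none listed. Symbols were updated by Entrez identifier (19429 matched). Of a gene's probe sets the one with the highest mean was used, and each member had 1. No test was possible with 1 array per group, and precision is limited by the number of arrays. The detection threshold is a convention, and a value under it turns a fold into a bound. Named are all members, DEPDC1, hepatocyte markers and up to 4 detected genes of each other list by absolute difference. Any other gene was named after its value was seen (COL1A1, COL3A1, DCN, PDGFRB, ACTA2, THY1, OSBPL7, LRP5, LRP6 and LRP8). Members, lists and promoters to print were chosen with earlier results of these data known. Counting at 2-fold was tested on simulated data with planted differences larger than 2-fold. The noise in that simulation was set and not taken from these arrays, and the 1.5-fold and gauge limits were not tried in it. Python 3.11.15 and pandas 2.3.3 were used.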

Additional observations from a re-analysis of the deposited data

Results flagged for a closer look

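These 3 values came from probe sets outside the gene comparison, since each is annotated to a member and another gene, and were higher in the siRNA array than in the NC array by more than the median of the probe set gauge (0.087). The probe set of SLC12A4 and LCAT was higher by 0.382. Those of FDPSP2 and FDPS were higher by 0.206 and 0.205, beside 0.25 at the probe set of FDPS alone.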

How the results depend on the processing

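The count of members past 1.5-fold (2) and past 2-fold (0) was the same under 7 other settings, the last of them chosen after seeing the data: no filter on low values, a filter at the 75th percentile of all values (6.49, 26 members left), the mean over a gene's probe sets, centring on the median of detected genes, quantile normalization, values raised to the threshold, and LCAT taken from its shared probe set. Since every member has 1 probe set and the median difference of detected genes was 0, averaging probe sets and centring leave the members' values as they are by construction. Raising values to the threshold does so too, since no detected member had an array under it. The filter settings and the LCAT setting change which members enter, not their values. Only quantile normalization could therefore shift a member's value. It had little room to do so, because the sorted columns differed by at most 0.0997 as deposited. The unchanged counts thus say little about how firm they are. Quantile normalization shifted single members by at most 0.033, and no member changed sign in any of the 7. The median of all members ran from -0.087 to -0.073. Of 63 counts and medians, 4 moved by more than the median of the gauge, 3 of them in the efflux group of 2 detected genes. Its median of 0.07 became -0.041 without the filter (ABCG5 and ABCG8 enter), 0.28 with the 75th percentile filter (ABCA1 alone) and 0.28 with LCAT. The mevalonate median of 0.02 became -0.07 with that filter, which leaves out MVK, PMVK and GGPS1. No paired analysis was possible because each group has 1 array. Differences of dim genes, ABCG1 among them, are limited by signal over background, which these values do not state.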
